A study of Mus musculus with 12 samples.

Results

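The Serpin family was described in the cervix of pregnant mice. Members were all genes whose platform symbol is Serpin, a clade letter from a to i, a number and at most 1 further letter. They were chosen by name and not by any measured value. The rule found 39 genes among the 18194 genes with 1 platform symbol, and 11 of the 39 were bright enough to be measured. The animals were outbred CD1 dams, assayed at gestation day 15. One group of 6 arrays had received medroxyprogesterone acetate (MPA), a synthetic progestin, at 1 mg per dam under the skin, and the other 6 arrays had received the same volume of ethanol, called vehicle here. Tissue was taken after 48 h. All animals were pregnant, the whole cervix was assayed, and the labels do not say whether dams were pooled or whether each array had a dam of its own, so a p value here reflects only how these arrays vary, which may be technical in part.

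Serpins are proteins with a shared fold and an exposed loop that serves as bait for a protease. In the inhibitory members the protease cuts the loop, the serpin changes shape, and the enzyme stays bound and inactive. Clade A and clades C to G are mostly secreted and act in blood clotting, clot lysis, complement and hormone transport, while clade B members stay mostly inside cells, above all in epithelia and leukocytes. Several members inhibit no protease: Serpinh1 is a chaperone of procollagen, Serpinf1 is a growth and vessel factor, and Serpinb5 (maspin) acts on epithelial cells by other means. In the cervix, a stratified epithelium lies on a collagen-rich stroma that softens before birth.

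The clade B genes lie in clusters, and 3 of the measured members belong to the cluster on chromosome 1. In the order of the RefSeq annotation (GRCm38.p6), Serpinb5 comes first of 12 genes and Serpinb8 last, with Serpinb11 as the eighth. Their upstream sequences, and those of the stromal members Serpinf1 and Serpinh1 for comparison, are shown because these genes fell into opposite patterns over the arrays. Each line gives the 250 bases before the annotated start from RefSeq (GRCm38.p6), 5′ to 3′ on the strand of the gene, and capitals mark every match to the letters searched.
Serpinb5 (chr1:106860925-106861174, plus strand): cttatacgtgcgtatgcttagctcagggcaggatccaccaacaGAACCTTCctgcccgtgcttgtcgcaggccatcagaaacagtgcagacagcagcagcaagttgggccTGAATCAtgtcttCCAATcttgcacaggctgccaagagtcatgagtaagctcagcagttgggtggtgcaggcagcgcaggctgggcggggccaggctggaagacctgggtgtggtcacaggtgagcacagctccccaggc
Serpinb11 (chr1:107362064-107362313, plus strand): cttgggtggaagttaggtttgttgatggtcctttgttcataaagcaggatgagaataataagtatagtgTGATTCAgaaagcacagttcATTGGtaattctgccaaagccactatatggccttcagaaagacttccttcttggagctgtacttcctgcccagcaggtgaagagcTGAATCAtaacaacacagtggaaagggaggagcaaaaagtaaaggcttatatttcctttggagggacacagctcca
Serpinb8 (chr1:107589756-107590005, plus strand): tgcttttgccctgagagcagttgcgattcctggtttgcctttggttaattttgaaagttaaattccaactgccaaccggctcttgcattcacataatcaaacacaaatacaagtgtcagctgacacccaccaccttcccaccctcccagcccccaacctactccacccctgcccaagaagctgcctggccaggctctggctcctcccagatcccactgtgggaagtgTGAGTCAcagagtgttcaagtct
Serpinf1 (chr11:75422624-75422873, minus strand): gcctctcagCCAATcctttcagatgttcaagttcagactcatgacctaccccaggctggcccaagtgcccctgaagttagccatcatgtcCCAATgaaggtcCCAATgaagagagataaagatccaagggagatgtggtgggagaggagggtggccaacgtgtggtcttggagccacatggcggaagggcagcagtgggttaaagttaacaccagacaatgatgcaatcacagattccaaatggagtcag
Serpinh1 (chr7:99353240-99353489, minus strand): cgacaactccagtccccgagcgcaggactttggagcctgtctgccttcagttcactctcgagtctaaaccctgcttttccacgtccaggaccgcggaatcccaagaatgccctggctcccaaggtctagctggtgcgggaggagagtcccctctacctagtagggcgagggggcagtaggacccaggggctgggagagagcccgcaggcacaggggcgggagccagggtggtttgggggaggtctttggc
Searched on both strands were the AP-1 letters TGANTCA, the steroid receptor hexamer AGAACA, the full steroid receptor palindrome that holds this hexamer, the TATA letters TATAAA, the letters CCAAT and the heat shock letters GAANNTTC. The AP-1 letters were in all 3 chromosome 1 promoters shown, from position -140 in Serpinb5, from -181 and -76 in Serpinb11 and from -23 in Serpinb8, where 6.75% of 32851 promoters of this length held them. Of the 4 other members of that cluster, all of them dim here, 3 also had a promoter with these letters, and over the family 8 of 34 genes with a promoter had them. The CCAAT letters, held by 33.8% of all promoters, were in Serpinf1 from -241, -160 and -148, in Serpinb5 from -127 and, on the other strand, in Serpinb11 from -161. Serpinb5 also held the heat shock letters from -207, as did 6.69% of promoters, and Serpinh1 held none of the letters searched. The steroid receptor hexamer, found in 16.1% of promoters, was in the antitrypsin copies Serpina1b from -174 and Serpina1c from -173, which also held the AP-1 letters from -240 and -239, and not in the 5 windows printed. A match is a run of letters and no measured binding site, and its absence says only that the letters are not in this window. The motifs were chosen after the values were seen, and 9 of the 11 measured members had a promoter in the table.

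Most of the family was dim in this tissue. The unit is the log2 of the authors' GCRMA intensity, and a gene counted as measured where it exceeded 4 on at least 6 of the 12 arrays. That left 28 of 39 members untested, and 23 of these stayed between 2.27 and 2.52 on every array. Among the 23 were the plasma inhibitors Serpinc1 (antithrombin), Serpind1 (heparin cofactor II), Serpinf2 (the plasmin inhibitor) and Serpina10, the hormone carriers Serpina6 (corticosteroid-binding globulin) and Serpina7 (thyroxine-binding globulin), and Serpinb2, an inhibitor of urokinase known from macrophages and keratinocytes. The other 5 untested genes were Serpina3n, Serpina9, Serpinb7, Serpinb9 and Serpini1. Serpina3n, an antichymotrypsin of the mouse, had a median of 3.58 in vehicle and passed 4 only on MPA 5, at 4.39. Serpinb9, the inhibitor of granzyme B, and Serpinb7 passed 4 only on MPA 6, at 4.50 and 4.48, and Serpina9 only on vehicle 5, at 4.39. Scanner files were not analysed here, so a dim value means close to the lowest values of the table and not a proven absence of the RNA.

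**Figure D1:**
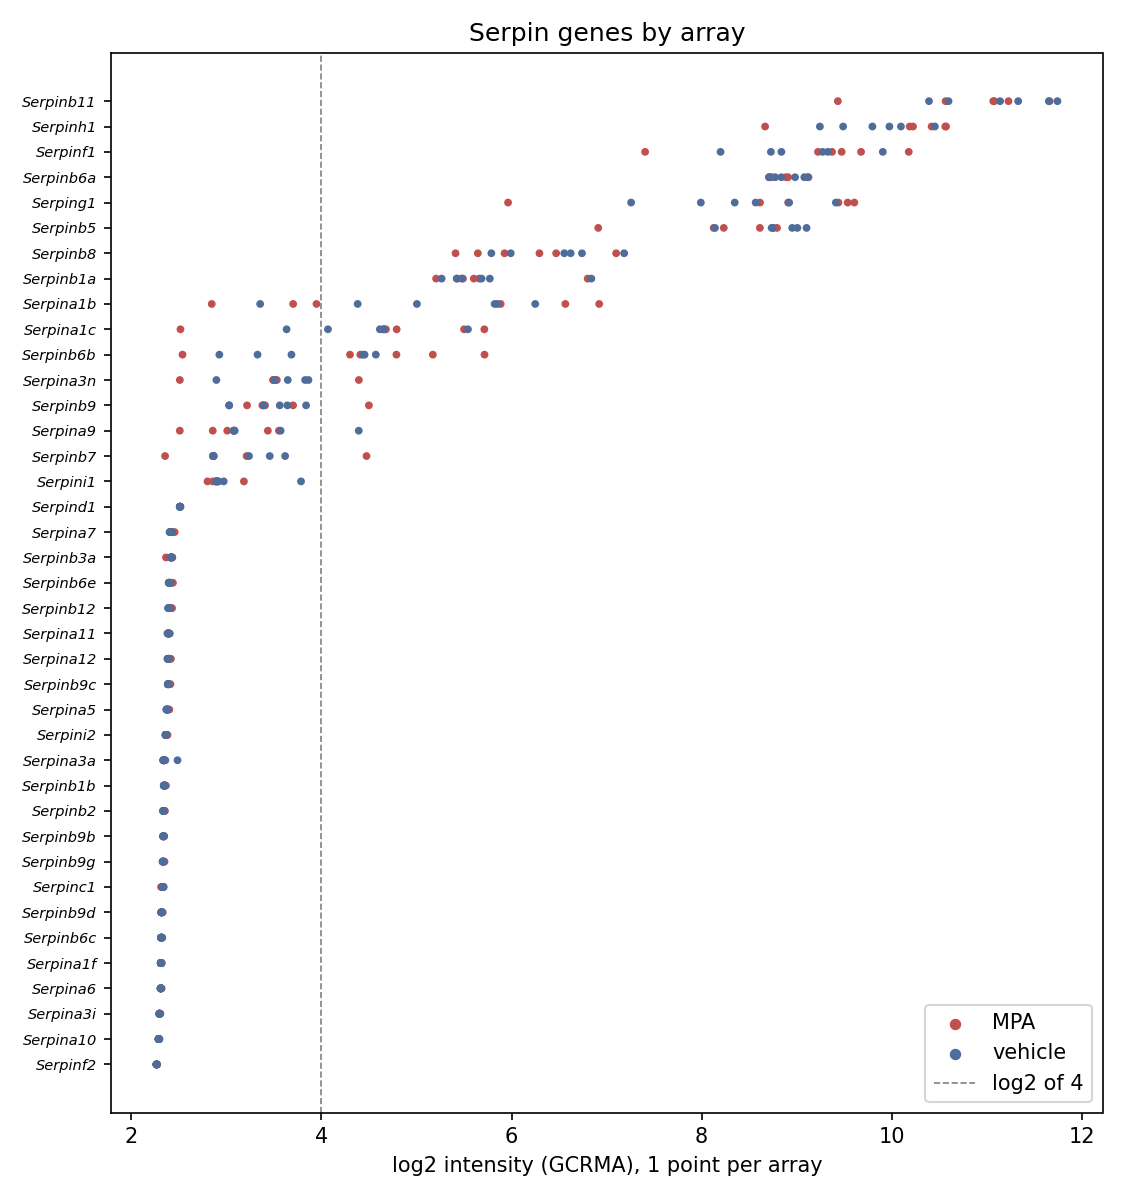
Log2 intensity of all 39 Serpin genes, with 1 point per array, red for MPA and blue for vehicle, sorted by mean. The dashed line marks a log2 of 4; 11 genes lie mostly to its right and 23 sit between 2.27 and 2.52. Levels of different genes come from different probes and are not compared.

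The 11 measured members were Serpina1b and Serpina1c of clade A, 6 clade B genes, and Serpinf1, Serping1 and Serpinh1. The same 11 had a mean over all 12 arrays above 4, a choice that does not look at the groups, and each passed 4 on at least 3 arrays of both groups. The tissue label was checked against markers: 11 of 11 basal epithelial genes of the table, 10 of 10 smooth muscle genes, 9 of 11 fibroblast genes and 8 of 12 macrophage and monocyte genes were measured. Of 16 cornified epithelial genes only 6 were measured, and Lor and Cdsn stayed at or under 2.35 and 2.37 on all arrays. The cornified level used below therefore rests on Krt4, Krt10, Krt13, Ivl, Sprr1a and Sbsn. Only 1 of 9 neutrophil genes (Ltf, which gland cells also make), 1 of 10 endothelial genes, 1 of 10 liver and yolk sac genes (Afp) and 0 of 5 trophoblast and decidua genes passed. Library-wide values differed little, with a median intensity between 6.62 and 6.86 per array and 8583 to 8960 genes above a log2 of 4. MPA 2 and MPA 5 stood apart in tissue markers. On MPA 2 the mean of 9 fibroblast genes, each centred over the 12 arrays, was -2.09, and the vehicle arrays ran from -1.05 to 0.53. On MPA 5 the mean of 6 cornified epithelial genes was -2.09, and the vehicle arrays ran from -0.17 to 0.59. In tissue of mixed cells, fewer cells of a type and less RNA per cell cannot be told apart.

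No Serpin gene passed the comparison of MPA with vehicle. By limma with Benjamini-Hochberg adjustment over the 8795 genes tested, 0 of 11 members had an adjusted p under 0.05, and on the brightest probe set of each gene, the one tested, 0 had an unadjusted p under 0.05; over all genes the shares were 0.0114% and 5.00%. The ordinary statistic of the linear model also called 0. The groups did not overlap for 0 of the 11, against 0.341% of all genes. Of the 11 members, 5 had a higher mean in MPA (45.5%, against 56.3% of all genes), and their median log2 difference, MPA minus vehicle, was -0.04 against 0.02 over all genes. The adjusted p was 1.00 for each of the 11. The members spread widely within groups: the median within-group SD was 0.67 on the log2 scale, against 0.25 over all tested genes, and 10 of 11 members exceeded the latter. That was not particular to the family, since the median was 0.74 for coagulation genes, 0.58 for inhibitors of other families, 0.77 for smooth muscle markers and 0.95 for fibroblast markers.

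**Figure D2:**
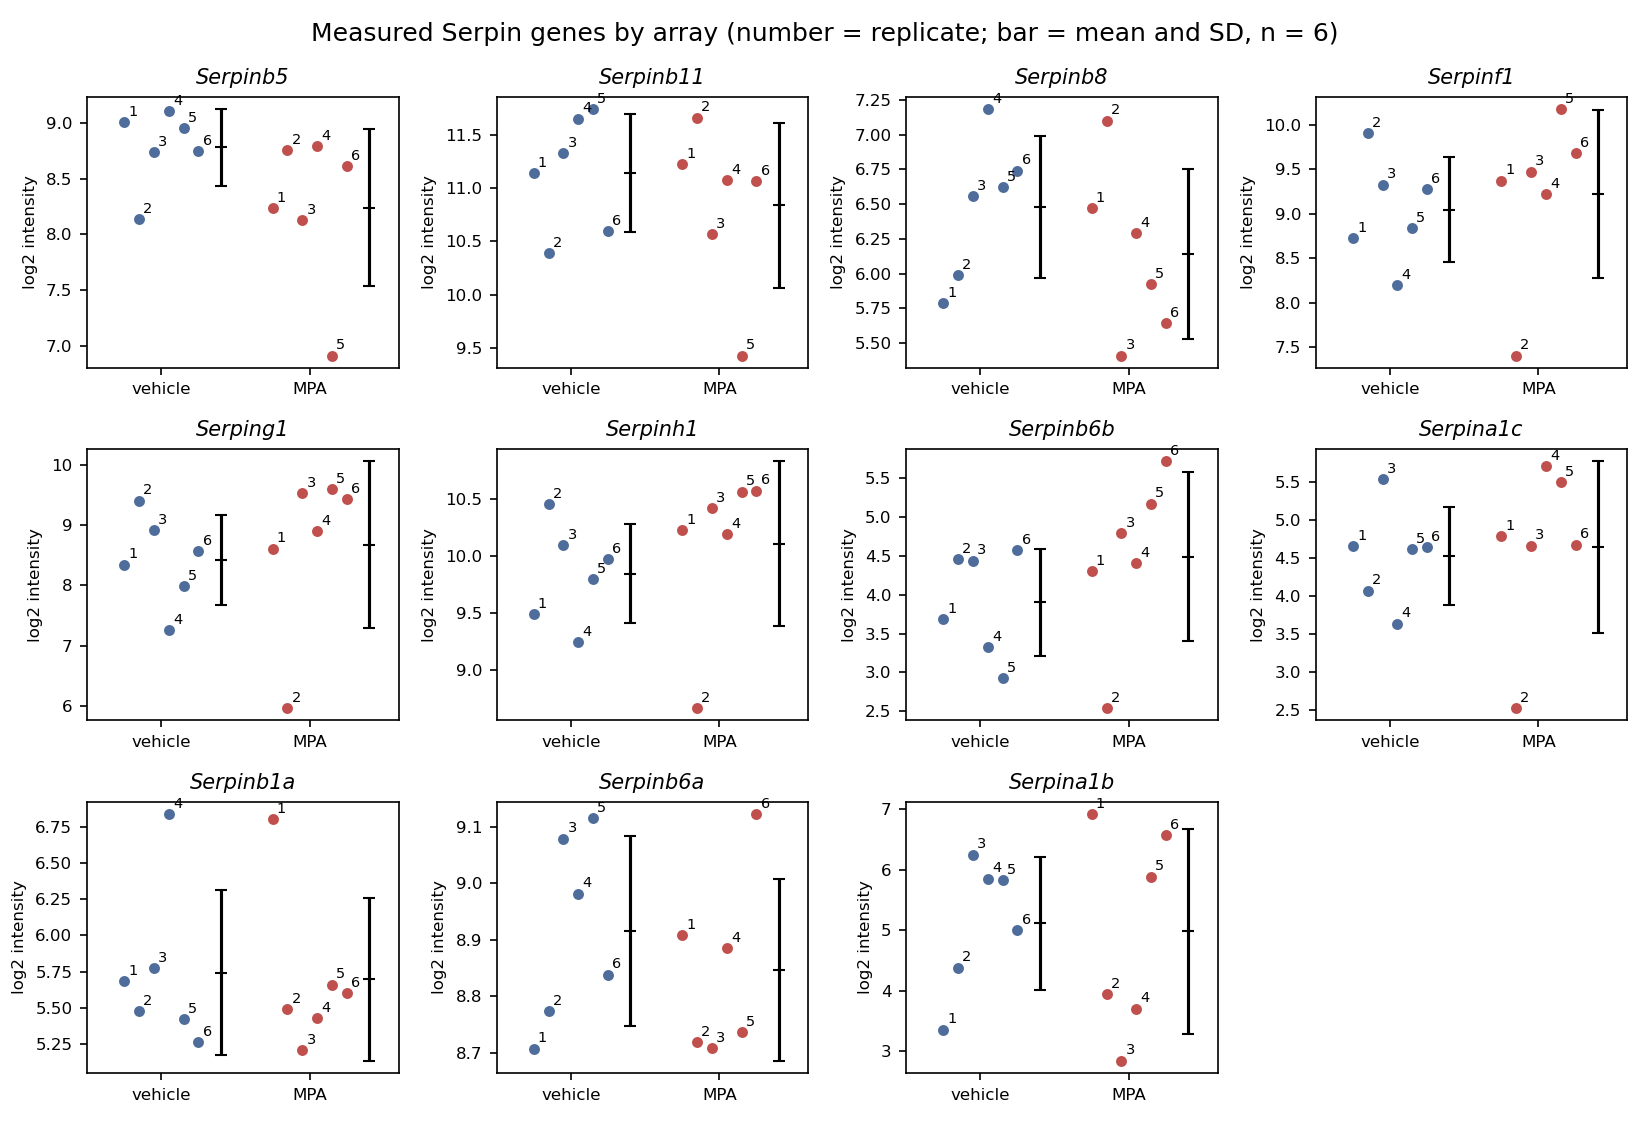
Log2 intensity of the 11 measured Serpin genes on each array, vehicle in blue and MPA in red, with replicate numbers beside the points and the mean and SD of each group (n = 6) as bars. The groups overlap in every panel; MPA 5 is lowest for Serpinb5 and Serpinb11, and MPA 2 is lowest for Serpinf1, Serping1, Serpinh1, Serpinb6b and Serpina1c.

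The measured members of the chromosome 1 cluster are described first, and of these Serpinb5 had the smallest p. Serpinb5, maspin, ran from 8.14 through a median of 8.85 to 9.10 on the vehicle arrays, and from 6.91 through 8.42 to 8.79 on the MPA arrays. MPA 5 was the low value, and the other MPA arrays lay between 8.13 and 8.79, within the vehicle range or just under it. The means were 8.78 ± 0.35 (SD, n = 6) in vehicle and 8.24 ± 0.70 (SD, n = 6) in MPA, a log2 difference of -0.54 (SE 0.29, 95% interval -1.18 to 0.10), and by limma the unadjusted p was 0.0889. That is the smallest p among the chosen probe sets of the 11 members and rank 720 of all genes tested; those of the other 10 ran from 0.241 to 0.883. Without MPA 5 the difference was -0.28, and within fluidics station 2, where MPA 1 and MPA 2 were washed beside vehicle 5 and vehicle 6, it was -0.36. Of its other 3 probe sets, 1 had an unadjusted p under 0.05: they gave log2 differences of -0.77 (SE 0.32), -0.74 (SE 0.37) and -0.45 (SE 0.34), with unadjusted limma values of 0.0347, 0.0693 and 0.214 and an adjusted value of 1.00 for each. They followed the chosen one over the arrays with r between 0.942 and 0.963, as probes of one RNA on the same arrays. The chosen probe set is of the kind marked _x_at, which can also bind related RNAs.

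Serpinb11, a clade B inhibitor of trypsin-like proteases in the mouse, was bright on every array. It ran from 10.39 through 11.23 to 11.74 in vehicle and from 9.43 through 11.07 to 11.66 in MPA, with MPA 5 lowest and the groups overlapping. The means were 11.14 ± 0.55 (SD, n = 6) in vehicle and 10.84 ± 0.77 (SD, n = 6) in MPA. The difference was -0.30 (SE 0.35, 95% interval -1.07 to 0.46), and it shrank to -0.02 without MPA 5 and turned to 0.27 within station 2. Serpinb8, whose human form inhibits furin, ran from 5.79 through 6.59 to 7.18 in vehicle and from 5.41 through 6.11 to 7.10 in MPA. Here MPA 3 was lowest and vehicle 4 highest, and the means were 6.48 ± 0.51 (SD, n = 6) in vehicle and 6.14 ± 0.61 (SD, n = 6) in MPA. The difference was -0.34 (SE 0.30, 95% interval -0.99 to 0.31); it was -0.53 without MPA 2, -0.19 without MPA 3, -0.20 without vehicle 4 and 0.10 within station 2. A second Serpinb8 probe set passed 4 on only 1 array, with a difference of -0.29, and followed the chosen one weakly, with r = 0.252. Of the other genes of the chromosome 1 cluster, Serpinb12, Serpinb3a, Serpinb7 and Serpinb2 were members that did not pass the minimum, and the remaining 5 are not analysed here.

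The secreted and stromal members shared another pattern. Serping1, the C1 inhibitor that blocks the first complement proteases and plasma kallikrein, ran from 7.26 through 8.46 to 9.41 in vehicle and from 5.96 through 9.17 to 9.60 in MPA. MPA 2 lay far below the rest, 5 of 6 MPA arrays lay between 8.61 and 9.60, and vehicle 4 was the lowest of its group. The means were 8.42 ± 0.75 (SD, n = 6) in vehicle and 8.68 ± 1.39 (SD, n = 6) in MPA. The difference was 0.26 (SE 0.58, 95% interval -1.002 to 1.53); it was 0.80 without MPA 2 and -0.99 within station 2. Serpinf1, pigment epithelium-derived factor, ran from 8.20 through 9.05 to 9.90 in vehicle and from 7.40 through 9.42 to 10.18 in MPA, again with MPA 2 lowest and MPA 5 highest. The means were 9.04 ± 0.59 (SD, n = 6) and 9.22 ± 0.95 (SD, n = 6), in that order. Its difference was 0.18 (SE 0.41, 95% interval -0.72 to 1.08), 0.54 without MPA 2, -0.02 without MPA 5 and -0.67 within station 2. Serpinh1, the procollagen chaperone also called HSP47, ran from 9.24 through 9.88 to 10.45 in vehicle and from 8.67 through 10.32 to 10.57 in MPA. The means were 9.84 ± 0.43 (SD, n = 6) in vehicle and 10.10 ± 0.72 (SD, n = 6) in MPA. Its difference was 0.26 (SE 0.31, 95% interval -0.42 to 0.95), 0.55 without MPA 2 and -0.44 within station 2, and its other probe set gave 0.39 over all arrays. Within station 2, MPA 2 lay below both vehicle arrays for each of the 3 genes, and MPA 1 lay above both. On MPA 1 Serping1 was at 8.61, against 7.99 and 8.57 on vehicle 5 and vehicle 6. Serpinf1 was at 9.37 there, against 8.84 and 9.27, and Serpinh1 at 10.22, against 9.79 and 9.97. For these 3 genes the sign therefore depended on which arrays were counted. The mean fibroblast level went the same way, with a difference of 0.22 over all arrays, 0.66 without MPA 2 and -0.94 within station 2; its part in these differences was not tested.

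Leukocyte-related and housekeeping members of clade B behaved differently from each other. Serpinb6b, a close copy of Serpinb6a, ran from 2.93 through 4.06 to 4.57 in vehicle and from 2.54 through 4.60 to 5.72 in MPA. It passed 4 on 3 vehicle and 5 MPA arrays, with means of 3.90 ± 0.69 (SD, n = 6) and 4.49 ± 1.09 (SD, n = 6). Its difference of 0.59 (SE 0.48, 95% interval -0.45 to 1.62) was the largest positive one among the 11 and did not pass. It was 0.98 without MPA 2, 0.34 without MPA 6, 0.39 without vehicle 5 and -0.33 within station 2. Serpinb6a itself, a widely expressed inhibitor of cathepsin G, stayed between 8.71 and 9.12 on all 12 arrays, with means of 8.92 ± 0.17 (SD, n = 6) in vehicle and 8.85 ± 0.16 (SD, n = 6) in MPA and a difference of -0.07 (SE 0.10, 95% interval -0.29 to 0.15). It was the steadiest member, with a within-group SD of 0.16. Serpinb1a, which inhibits neutrophil elastase, lay between 5.21 and 5.77 on 10 arrays and reached 6.80 on MPA 1 and 6.84 on vehicle 4, so its difference was -0.04 (SE 0.30). Its other probe set gave 0.03 (SE 0.36) and followed the chosen one with r = 0.866. The columnar epithelial marker level was highest on MPA 1, at 0.46, and second on vehicle 4, at 0.26. Over all 12 arrays, though, Serpinb1a did not pass with that level. The r was 0.538 (permutation p = 0.0759, adjusted p = 0.104) and the rho 0.350 (permutation p = 0.265). The neutrophil markers S100a8 and S100a9 were dim on all arrays, at or under 2.61 and 3.58. The part of either cell type in these values was not tested.

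Serpina1b and Serpina1c are mouse copies of the antitrypsin gene, best known as a liver product that blocks neutrophil elastase. Serpina1b ran from 3.36 through 5.41 to 6.25 in vehicle and from 2.85 through 4.92 to 6.92 in MPA. The means were 5.11 ± 1.09 (SD, n = 6) and 4.98 ± 1.69 (SD, n = 6), in that order, with a difference of -0.13 (SE 0.74, 95% interval -1.75 to 1.48). Its within-group SD of 1.43 was larger than that of 99.4% of tested genes. Serpina1c ran from 3.63 through 4.63 to 5.54 in vehicle and from 2.52 through 4.74 to 5.71 in MPA. The means were 4.53 ± 0.64 (SD, n = 6) in vehicle and 4.65 ± 1.13 (SD, n = 6) in MPA, with a difference of 0.12 (SE 0.48, 95% interval -0.93 to 1.17). The copies are near-identical, 2 further probe sets that name several antitrypsin copies each were left out by the rule, and signal of one copy on the probe set of another cannot be told apart. Of 10 liver and yolk sac markers only Afp was measured, with a mean of 6.67 in vehicle and 5.38 in MPA. Albumin (Alb) stayed at or under 2.34 and Apoa1 at or under 2.90 on all arrays. Ttr, which did not count as measured, reached 8.76 on its highest array. The relation of Serpina1b and Serpina1c to these markers over the arrays was not tested.

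**Figure D3:**
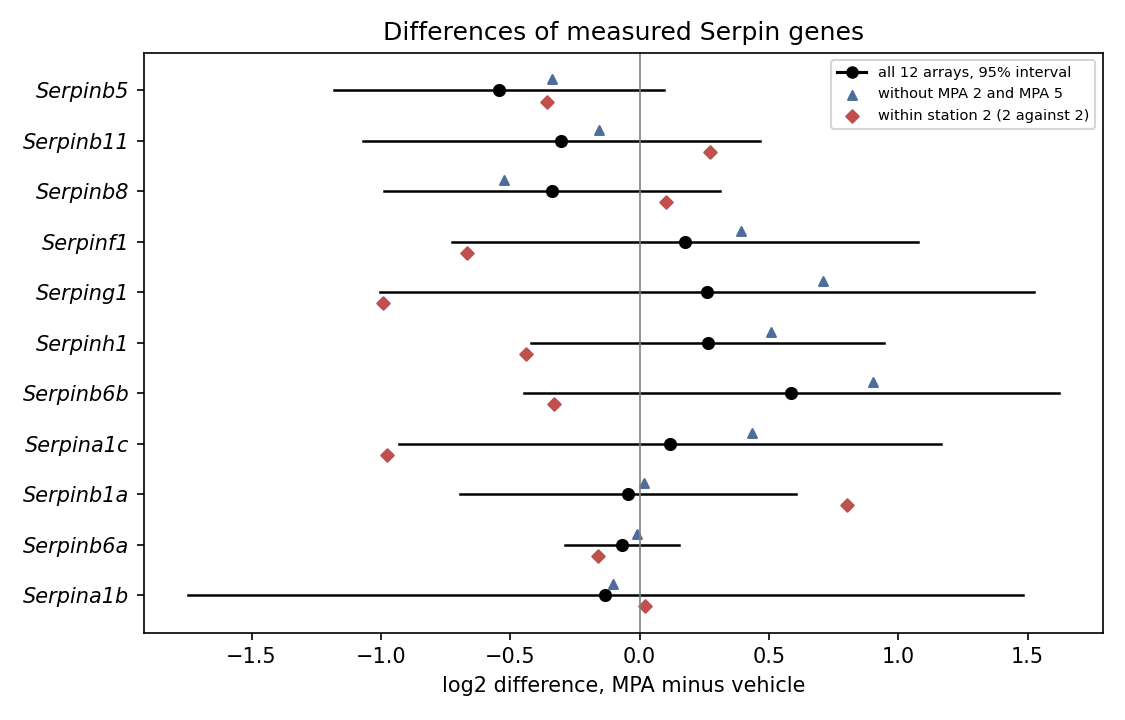
Log2 difference, MPA minus vehicle, of the 11 measured Serpin genes over all 12 arrays (black, with the 95% interval of limma), without MPA 2 and MPA 5 (blue triangles) and within station 2, 2 arrays against 2 (red diamonds). Every black interval crosses 0, and 9 of the 11 red diamonds lie on the other side of 0 from the black point.

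The spread within groups was set against cell type markers, to describe which tissue each member went with. Each of the 11 genes was correlated over the 12 arrays with the mean level of 4 marker lists, 44 relations in all. Of these, 22 had a Benjamini-Hochberg adjusted permutation p of r under 0.05. The share of all tested genes that would pass so was not computed. Over the tested genes outside each list the median r without its sign was 0.45 for basal and 0.37 for cornified markers. It was 0.45 for fibroblast and 0.40 for macrophage and monocyte markers, so sizeable relations were common in these data. Serping1 followed the fibroblast markers with r = 0.985 (permutation p = 1e-05, which is the lowest value possible with 100000 draws; adjusted p = 7.33e-05) and rho = 0.944 (permutation p = 1e-05, adjusted p = 2.2e-04). Without MPA 2 and vehicle 4, the arrays farthest from the median of these markers, r was 0.932, and on deviations from the means of group and station it was 0.979. For Serpinf1 r was 0.974 (permutation p = 1e-05) with a rho of 0.916 (permutation p = 8e-05), and r = 0.905 without the same arrays. For Serpinh1 r was 0.964 (permutation p = 1e-05) with a rho of 0.937 (permutation p = 1e-05), and r = 0.876 without them. An r of at least 0.9 with the fibroblast level was found in 4 of 11 members and in 4.87% of the other tested genes. The smooth muscle level, a list added after the data were seen, was followed almost as closely. Serping1 had an r of 0.956 with it (permutation p = 3e-05, adjusted p = 3.3e-04) and a rho of 0.818 (permutation p = 0.00193), and 0.805 without MPA 2 and vehicle 4. The r of Serpinf1 was 0.964 (permutation p = 1e-05, adjusted p = 2.2e-04, rho = 0.867 with permutation p = 5.5e-04), and that of Serpinh1 was 0.928 (permutation p = 8e-05, adjusted p = 5.87e-04, rho = 0.748 with permutation p = 0.00702). These data do not separate fibroblasts from smooth muscle for the 3 genes. A station holds 4 arrays, too few for a correlation of its own.

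Epithelial members went the other way. Serpinb5 followed the cornified epithelial markers with r = 0.972 (permutation p = 1e-05, adjusted p = 7.33e-05) and rho = 0.895 (permutation p = 3e-04, adjusted p = 0.00147), and r stayed at 0.915 without MPA 3 and MPA 5. An r of at least 0.9 with this level was found in 0.364% of other tested genes. Serpinb5 followed the basal markers too, with r = 0.908 (permutation p = 3.8e-04, adjusted p = 0.00186) and rho = 0.832 (permutation p = 0.00136). That r was 0.708 without MPA 5 and vehicle 5, and 0.940 on deviations from group and station means. These data do not separate the basal from the cornified layer for Serpinb5. Serpinb11 followed the basal markers with r = 0.965 (permutation p = 1e-05, adjusted p = 7.33e-05) and rho = 0.937 (permutation p = 2e-05, adjusted p = 2.93e-04), and r was 0.901 without MPA 5 and vehicle 5; 1.23% of other genes reached 0.9 there. Serpinb11 with the cornified markers gave r = 0.842 (permutation p = 0.00238), which fell to 0.481 without MPA 3 and MPA 5, so that relation rests on those arrays. Serpinb8 with the basal markers had an r of 0.639 (permutation p = 0.0196, adjusted p = 0.0391) and a rho of 0.706 (permutation p = 0.0129). On deviations from group and station means it was 0.347. With the cornified markers Serpinb8 did not pass, with r = 0.384 (permutation p = 0.231, adjusted p = 0.308) and rho = 0.392 (permutation p = 0.21). That r was 0.070 on deviations from group and station means. Its r with the columnar epithelial level, another list added after the data were seen, was 0.768 (permutation p = 0.00452, adjusted p = 0.0142) with a rho of 0.762 (permutation p = 0.00537). The columnar r was 0.903 without MPA 1 and MPA 5 and 0.578 on deviations from group and station means. The basal and cornified levels were themselves lower in MPA, by 0.36 and 0.65 in mean, and by 0.16 and 0.30 without MPA 5; their part in the Serpinb5 difference was not tested.

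Serpinb6b followed the macrophage and monocyte markers with r = 0.939 (permutation p = 1e-05, adjusted p = 7.33e-05) and rho = 0.874 (permutation p = 4.7e-04, adjusted p = 0.00207), where 0.239% of other genes reached 0.9. It followed the fibroblast markers nearly as closely, with r = 0.907 (permutation p = 5e-05) and rho = 0.937 (permutation p = 5e-05). The macrophage level was higher in MPA by 0.58 in mean, with 8 of 8 measured genes higher, and by 0.07 within station 2; its part in the Serpinb6b difference was not tested. Serpina1c gave r = 0.809 with the fibroblast markers (permutation p = 0.00308) but rho = 0.538 (permutation p = 0.0752), and r fell to 0.238 without MPA 2 and vehicle 4, so it rests on those arrays. Serpinb1a, Serpinb6a and Serpina1b had no relation with an adjusted p under 0.05 to any of the 4 lists.

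**Figure D4:**
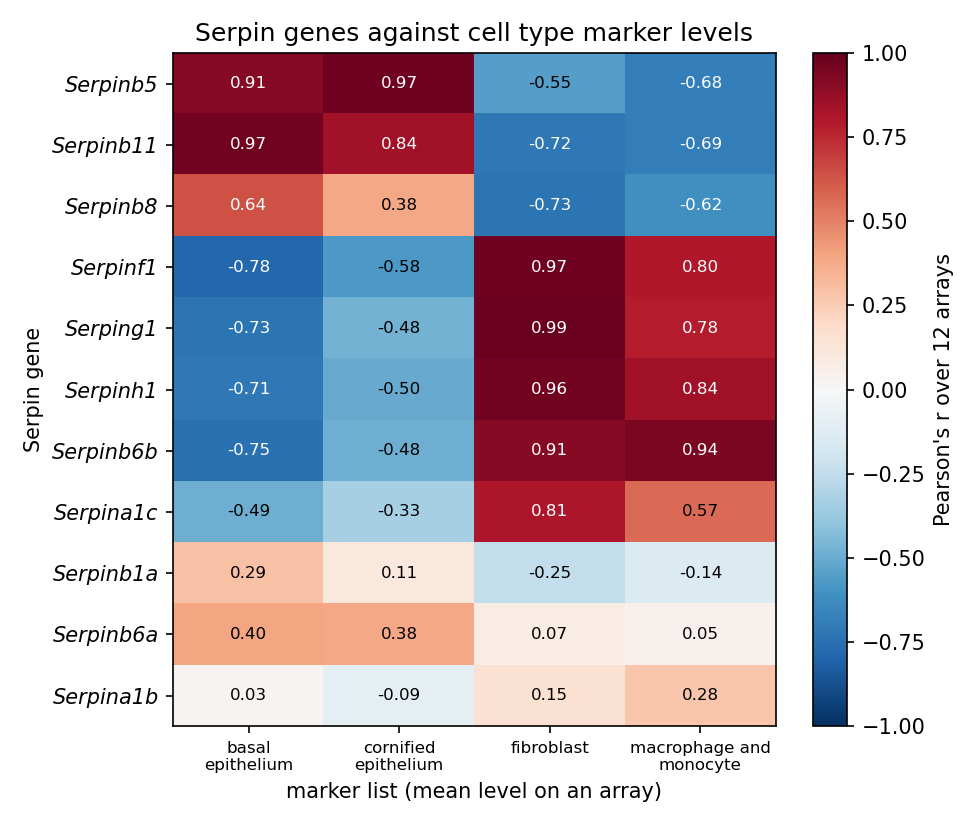
Pearson's r over 12 arrays between each measured Serpin gene (rows) and the mean level of 4 marker lists (columns), red for positive and blue for negative. Serpinb5, Serpinb11 and Serpinb8 are positive with the epithelial lists and negative with fibroblast and macrophage lists, and Serpinf1, Serping1, Serpinh1 and Serpinb6b show the reverse.

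**Figure D5:**
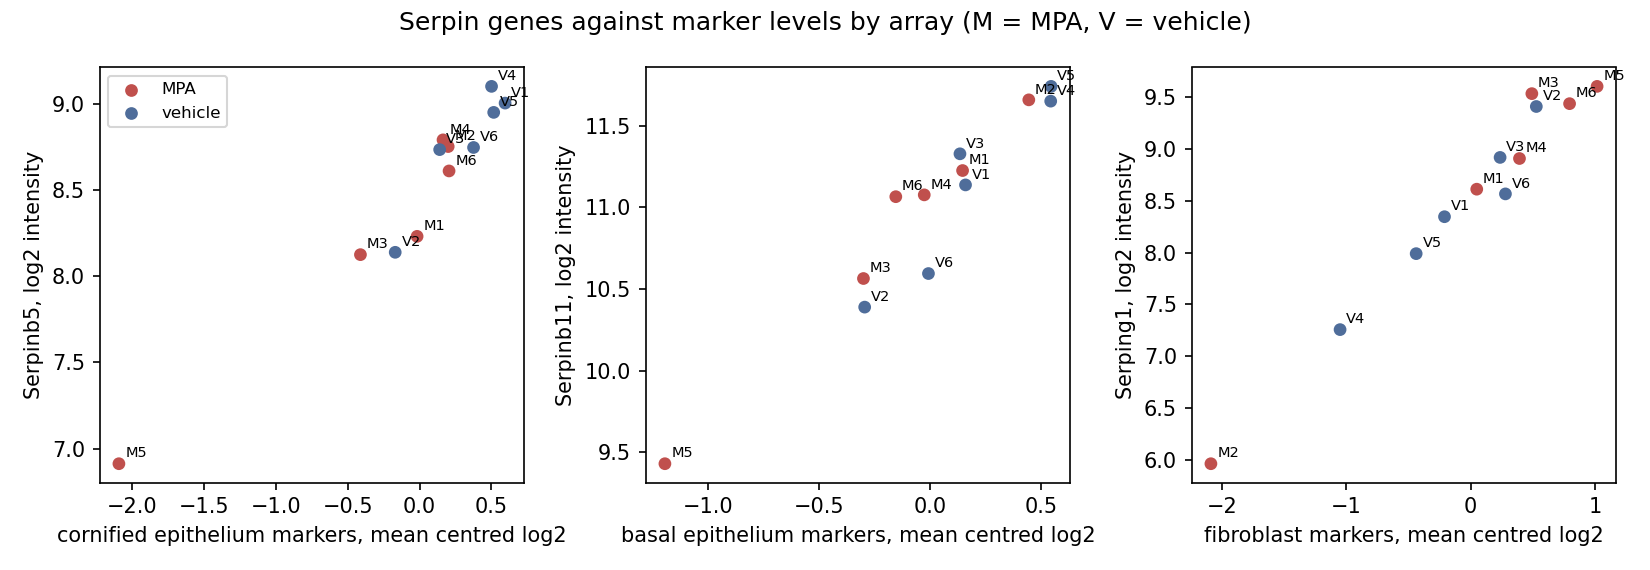
Log2 intensity of Serpinb5, Serpinb11 and Serping1 against the mean centred level of cornified, basal and fibroblast markers, with 1 point per array, red for MPA (M) and blue for vehicle (V). MPA 5 is the lowest point in the first 2 panels and MPA 2 in the last, and the points of both groups are mixed along each panel.

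Some members also followed each other, and some ran in opposite directions. Of 55 pairs, 17 had an adjusted permutation p of r under 0.05, and the share over pairs of other tested genes was not computed. Whether that count is particular to the family therefore cannot be told. Serpinf1 with Serpinh1 had an r of 0.974 (permutation p = 1e-05, adjusted p = 1.83e-04) and a rho of 0.958 (permutation p = 1e-05), and r = 0.910 without MPA 2 and vehicle 4. The members of the chromosome 1 cluster were less close: Serpinb5 with Serpinb11 had an r of 0.870 (permutation p = 0.00114, adjusted p = 0.00784) and a rho of 0.727 (permutation p = 0.0101), and r = 0.595 without MPA 3 and MPA 5. Serpinb5 with Serpinb8 had an r of 0.456 (permutation p = 0.135) and a rho of 0.552 (permutation p = 0.0671), and Serpinb11 with Serpinb8 an r of 0.568 (permutation p = 0.0505, adjusted p = 0.12) and a rho of 0.657 (permutation p = 0.0239). Serpinb8 and Serping1 ran in opposite directions, with r = -0.794 (permutation p = 8.3e-04, adjusted p = 0.00652) and rho = -0.776 (permutation p = 0.00425).

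The proteases, receptors and co-workers that serpins meet were counted next. By limma 0 of 59 measured partner genes passed after adjustment over all genes, and 3 (Plat, Ctsz and Ppib), or 5.08%, had an unadjusted p under 0.05, near the 5.00% of all tested genes. Of 11 plasminogen activation genes, 7 were measured and 6 of these were higher in MPA, with a median log2 difference of 0.17. Plat, tissue plasminogen activator, had 0.80 (SE 0.30) and Anxa2, a cell surface site for plasminogen, -0.33 (SE 0.16). Of 18 coagulation genes 6 were measured, 4 of them higher and 2 lower; F3, the tissue factor, had -0.24 (SE 0.17) and Procr, a receptor of protein C, 0.23 (SE 0.19). Among cysteine proteases, which some clade B serpins block, 7 of 8 were higher with a median of 0.27, and Ctsz, cathepsin Z, had 0.68 (SE 0.23). Leukocyte serine proteases were nearly all dim: 2 of 15 were measured, the mast cell enzymes Mcpt4 with 0.57 (SE 0.55) and Cma1 with 0.56 (SE 0.57). Epithelial serine proteases split evenly, 4 higher and 4 lower, with Hpn at 0.33 (SE 0.19) and Tmprss4 at 0.27 (SE 0.17). Of 12 inhibitors of other families 8 were higher, and Csta1, an epithelial cystatin, had -0.75 (SE 0.45).

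Procollagen folding genes, the clients and partners of Serpinh1, were higher in MPA for 13 of 13 measured members with a median of 0.26, and 0 passed; Ppib, a prolyl isomerase, had 0.26 (SE 0.10) and P4ha2, a prolyl hydroxylase subunit, 0.46 (SE 0.26). Their mean level turned from 0.26 over all arrays to -0.27 within station 2, as Serpinh1 did. Serpinh1 followed this level with r = 0.979 (permutation p = 1e-05) and rho = 0.972 (permutation p = 1e-05), and r was 0.940 without MPA 2 and vehicle 4. Its r with the fibroblast level, 0.964, and with the smooth muscle level, 0.928, was nearly as high. The share of all tested genes with such an r to the procollagen list was not computed. The Serping1 target C1ra was dim, at or under 3.51 on all arrays. Of the 4 measured genes of the first complement step 2 were higher, C1qc with 0.70 (SE 0.36) and C1qb with 0.64 (SE 0.34). These belong to the complex the proteases sit in. The other 2 were lower, among them the protease Masp2 with -0.21 (SE 0.17). Serping1 followed the mean level of the 4 genes with r = 0.876 (permutation p = 2e-05) and rho = 0.937 (permutation p = 6e-05). Without MPA 2 and MPA 5 r was 0.901. The r of Serping1 with the fibroblast level, 0.985, and with the smooth muscle level, 0.956, was higher. The share of all tested genes with such an r to the complement list was not computed. The epithelial serine proteases gave r = 0.567 with Serpinb5 (permutation p = 0.0595), and without MPA 5 and vehicle 1 it was -0.199. These 5 relations with partner lists, 3 of them with epithelial serine proteases, were chosen after the data were seen, and 2 had an adjusted p under 0.05.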

How the data were processed

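Cervical RNA on 12 arrays, 6 MPA and 6 vehicle, was grouped by sample title. Per the labels' protocols, RNA was amplified and biotinylated as cDNA. The authors deposited intensity values for 45101 probe sets on a linear scale, made with GCRMA per the submitters' processing notes, a method that removes background, scales arrays to each other and combines the probes of a set (GCRMA version not given in the sources used here). Deposited instrument records (other data, no expression value) gave the fluidics station. The number of arrays limits the precision.

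Values were turned to log2 without a pseudocount, multi-symbol probe sets were left out, and each gene was represented by its brightest probe set over all arrays. Names came from the platform annotation. Genes above a log2 of 4 on at least 6 arrays, 8795 in all, were compared with limma 3.58.1 in R 4.3.3 (lmFit and eBayes, no covariates), with Benjamini-Hochberg adjustment and a threshold of 0.05; the fit was tested on simulated data. Correlations have permutation p values from 100000 draws. The members, lists and tests were chosen with earlier results of these data known. Any Serpin gene could be named. Group ranges, means, SDs, differences and intervals were given for the 10 tested members with the smallest p, and the others by range. From each partner list up to 3 genes of smallest p were named. Alternatives changed the filter, probe set summary, normalization, pseudocount, variance model, array weights, station, replicate block, test, threshold and arrays. Leaving out MPA 2 with MPA 5, the correlations with smooth muscle, columnar and partner lists, and the list means on fewer arrays were added after seeing the data. Smooth muscle and columnar markers gave 22 relations, 10 with an adjusted p under 0.05, and the share over all tested genes was not computed for them.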

Additional observations from a re-analysis of the deposited data

Results flagged for a closer look

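Within a group of 6 arrays, the lowest or highest array stood far from the others (a gap over 0.625 of the range of the group) for 7 values of measured Serpin genes, out of 22 groups of arrays looked at. Chance flags about 1 group in 20, and the genes share arrays and are correlated. MPA 2 was the low array for 4 of them: Serping1 at 5.96 (others 8.61 to 9.60), Serpinf1 at 7.40 (others 9.22 to 10.18), Serpinh1 at 8.67 (others 10.19 to 10.57) and Serpina1c at 2.52 (others 4.67 to 5.71). On this array the fibroblast marker level was -2.09 and the smooth muscle level -1.72, both the lowest of the 12; their part in these values was not tested. MPA 5 was low for Serpinb5 at 6.91 (others 8.13 to 8.79), with the cornified marker level at -2.09 and the basal level at -1.20 on that array. Serpinb1a was high on MPA 1 at 6.80 (others 5.21 to 5.66) and on vehicle 4 at 6.84 (others 5.27 to 5.77).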

How the results depend on the processing

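No Serpin gene passed in any of 28 alternatives, and the median difference of the tested members ran from -0.33 within station 2 to 0.10 with 1 array left out. Over all genes the single call became 0 without the filter on dim genes, within station 2, with the replicate block, with the ordinary statistic and without MPA 2 and MPA 5; with each array left out in turn it was 0 or 1. Quantile normalization and centring of array medians turned no member. With the station as a block, and equally within station 2, which rest on the same 4 arrays, signs turned for Serpina1b (0.022), Serpina1c (-0.98), Serpinb11 (0.27), Serpinb1a (0.80), Serpinb6b (-0.33), Serpinb8 (0.10), Serpinf1 (-0.67), Serping1 (-0.99) and Serpinh1 (-0.44); the other stations held 1 group each, so station and group cannot be told apart there. Signs also turned with the station as a random block for Serpina1c (-0.048) and Serpinb1a (0.083), with a pseudocount of 16 for Serpina1b (0.013), and without MPA 2 and MPA 5 for Serpinb1a (0.017). With each array left out in turn, differences ran from -0.52 to 0.29 for Serpina1b, from -0.10 to 0.54 for Serpina1c, from -0.27 to 0.17 for Serpinb1a and from -0.015 to 0.54 for Serpinf1. Serpinb5 and Serpinb6a kept their sign in all 27 alternatives, from -0.67 to -0.28 and from -0.16 to -0.01. The cause of the changes was not tested beyond the arrays named. The replicate numbers share only a number: same-numbered arrays had deviations with r from -0.60 to 0.05, and none correlated best with its own number; the replicate block gave 0 calls over all genes and 0 Serpin calls. Serpinb6b and Serpina1c lie near the minimum and were not tested with a minimum of 5.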
